A study of Mus musculus with 4 samples.

Results

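The genes described here encode molecular chaperones and components of the unfolded protein response. They were taken from a list of 33 gene symbols, and each gene was read from whichever of its own probe sets had the highest mean log2 intensity. The array carried 31 of the 33, out of 12393 genes that the probe set annotation names. No probe set named Hsp90ab1, the constitutive cytosolic HSP90, or Hsf1, the master transcription factor of the heat shock response. All 31 reached the level filter used here, 20.04 intensity units (the table's median) on at least 1 array, as 7461 of all named genes did.

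RNA came from primary cultures of keratinocytes, which form the epidermis, grown from tail skin of C57BL/6 mice. All of the mice carried a floxed Prdm1 gene, which encodes the transcriptional repressor Blimp-1. Control cells lacked CreER and CKO cells had it; CreER is a Cre recombinase that acts once 4-hydroxytamoxifen (4OHT) binds its estrogen receptor part. Cells of each genotype received 4OHT, or ethanol (EtOH) as the solvent alone, between day 1 and day 3 and were collected on day 5. The 4 groups, with 1 array each, are called control EtOH and control 4OHT for cells without CreER, and CKO EtOH and CKO 4OHT for cells with it. Only CKO 4OHT had the recombinase together with its inducer. The sources used here do not give the promoter that drives CreER, the part of Prdm1 that is floxed or the number of mice behind each culture. With 1 array per group there was no replicate check and no test, so each difference compares 2 arrays, and genotype cannot be told apart from animal.

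Secreted and membrane proteins are folded in the endoplasmic reticulum (ER) by chaperones such as BiP and by protein disulfide isomerases. When unfolded proteins accumulate there, the sensors IRE1, PERK and ATF6 signal to the nucleus. IRE1 splices the mRNA of the transcription factor XBP1, ATF6 is cut to release a transcription factor, and PERK slows translation while favouring that of ATF4. ATF4 also responds to amino acid shortage and raises genes of amino acid synthesis and the factor CHOP. In the cytosol, the heat shock response driven by HSF1 supplies chaperones of the HSP70, HSP90, HSP40 and small heat shock protein families. Keratinocytes make large amounts of small heat shock protein as they differentiate, and Blimp-1 and XBP1 are known together from plasma cells, where they act in the secretory programme.

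Promoter sequence was searched for exact matches to textbook elements of the response. RefSeq promoter windows (build GRCm38.p6) were found for 28 of the 33 genes, and the 250 bases before each transcript start were searched on both strands. The ER stress response element, ERSE, searched as CCAAT and CCACG with 9 bases of any kind between them, was present for 6 of the 28 and for 0.13% of 27025 genes with a window. The shorter ERSE-II, in which 1 base of any kind separates ATTGG from CCACG, was present for Herpud1 and for 0.037% of all genes. The elements and the listed genes were both chosen for these stress responses. A higher share among the listed genes was therefore built into the choice and is not a result of these data. These stretches are shown because their genes form most of the ER group described first below. Each is printed 5′ to 3′ on the strand of the gene, with the match in capitals and up to 30 bases on each side.
Hspa5, ERSE, chr2:34771995-34772073, plus strand, capitals 65 to 47 bases before the start: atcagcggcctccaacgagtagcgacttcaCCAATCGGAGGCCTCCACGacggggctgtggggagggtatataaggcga
Hsp90b1, ERSE, chr10:86705608-86705686, minus strand, capitals 212 to 194 bases before the start: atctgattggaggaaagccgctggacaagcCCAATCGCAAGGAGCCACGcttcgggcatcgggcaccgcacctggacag
Hsp90b1, ERSE, chr10:86705503-86705581, minus strand, capitals 107 to 89 bases before the start: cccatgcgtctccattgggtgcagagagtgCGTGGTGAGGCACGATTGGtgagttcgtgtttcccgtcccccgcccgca
Calr, ERSE, chr8:84847045-84847123, minus strand, capitals 162 to 144 bases before the start: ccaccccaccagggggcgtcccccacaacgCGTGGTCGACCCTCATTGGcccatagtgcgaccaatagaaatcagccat
Canx, ERSE, chr11:50325770-50325848, minus strand, capitals 145 to 127 bases before the start: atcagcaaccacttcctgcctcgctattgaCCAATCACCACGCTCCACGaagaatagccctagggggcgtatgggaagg
Pdia6, ERSE, chr12:17266461-17266539, plus strand, capitals 98 to 80 bases before the start: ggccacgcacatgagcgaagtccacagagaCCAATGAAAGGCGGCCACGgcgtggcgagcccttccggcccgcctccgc
Dnajc3, ERSE, chr14:118937797-118937875, plus strand, capitals 105 to 87 bases before the start: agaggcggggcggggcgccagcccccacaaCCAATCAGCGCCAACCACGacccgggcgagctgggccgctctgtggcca
Herpud1, ERSE-II, chr8:94386347-94386417, plus strand, capitals 52 to 42 bases before the start: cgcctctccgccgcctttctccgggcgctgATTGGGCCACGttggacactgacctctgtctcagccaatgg

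The ERSE genes thus were Hspa5, Hsp90b1 (with 2 matches), Calr, Canx, Pdia6 and Dnajc3, all of them ER chaperones, co-chaperones or folding enzymes. The C/EBP-ATF element, CARE, searched as TGATGNAA, was present for Asns, Chac1 and Herpud1 and for 3.91% of all genes. The heat shock element, HSE, searched as GAA, TTC and GAA with 2 bases of any kind between neighbours, was present for Hspd1 and Hspe1, which share 1 stretch between their divergent starts, and for 0.514% of all genes. That stretch holds 2 overlapping matches, 1 on each strand. Below, capitals mark only the match 84 to 72 bases before the Hspe1 start, and the other lies at 89 to 77. The unfolded protein response element, UPRE, searched as TGACGTGG, was present for none of the 28 and for 0.603% of all genes. The stretches with CARE and HSE matches follow, because Asns and Chac1 are among the genes lowest in CKO 4OHT. CKO 4OHT was above CKO EtOH for all 6 ERSE genes (0.16 to 0.61), and for all 9 ER folding genes with or without a match. It was below CKO EtOH for the CARE genes Asns (-0.59) and Chac1 (-0.35). For Herpud1, with both a CARE and an ERSE-II match, it was above (0.27). Against control 4OHT, Pdia6 with its ERSE match was lower in CKO 4OHT (-0.13). Herpud1 gave 0.16 there by its main probe set and -0.16 by a further one (1435626_a_at). Whether the letters go with direction was not tested. ERSE and ERSE-II share the part CCACG, and ATTGG is the reverse complement of CCAAT. A match describes the letters in this window only, and the lack of an exact match does not show that a gene lacks the element.
Asns, CARE, chr6:7693210-7693262, minus strand, capitals 23 to 16 bases before the start: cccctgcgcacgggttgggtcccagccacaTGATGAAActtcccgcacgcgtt
Chac1, CARE, chr2:119351019-119351086, plus strand, capitals 193 to 186 bases before the start: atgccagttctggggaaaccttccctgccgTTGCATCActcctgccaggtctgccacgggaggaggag
Herpud1, CARE, chr8:94386287-94386354, plus strand, capitals 112 to 105 bases before the start: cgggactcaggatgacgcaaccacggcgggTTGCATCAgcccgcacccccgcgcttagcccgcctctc
Hspe1, HSE, chr1:55088034-55088106, plus strand, capitals 84 to 72 bases before the start: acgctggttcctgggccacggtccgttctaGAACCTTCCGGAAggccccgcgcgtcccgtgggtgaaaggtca

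The targeted gene, Prdm1, was read by 1 probe set. Its intensities were 20.7 with EtOH and 52.4 with 4OHT in control cells, and 17.0 with EtOH and 6.43 with 4OHT in CKO cells. CKO 4OHT was the lowest array, and deletion of the gene was not tested. The medians of the arrays lay between 19.95 and 20.22 intensity units. Of 9 keratinocyte markers on the array 8 were above the level filter, Ivl was below it, and their summed intensity was 11492 to 12209. Krt1, a marker of the first suprabasal layers, was between 136 and 246 except in CKO 4OHT, where it was 21.8. The markers Krt10 and Lor did not show such a drop. Krt10 was at 209 with EtOH and 352 with 4OHT in control cells, and at 328 with EtOH and 249 with 4OHT in CKO cells. Lor was at 110 with EtOH and 151 with 4OHT in control cells, and at 110 with EtOH and 104 with 4OHT in CKO cells. Itgb4, an integrin subunit of basal cells, was the marker that went the other way past 1.5-fold, at 551 in CKO 4OHT beside 316 in CKO EtOH and 315 in control 4OHT, and Krt5 and Krt14 make up most of the sum. Of the markers of other cells, 1 of 7 for fibroblasts, 1 of 7 for leukocytes, 0 of 5 for endothelium and 4 of 5 for melanocytes passed the filter. The melanocyte sum was 101 to 113 on 3 arrays and 129 in CKO 4OHT, and the sums were 70.2 to 74.3 for fibroblast, 82.1 to 85.6 for leukocyte and 34.6 to 42.9 for endothelial markers. The part of these markers, and of the differences in Krt1 and Itgb4, in the results below was not tested. In such bulk RNA, fewer cells of a type and less RNA per cell cannot be told apart.

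The chaperone and unfolded protein response genes differed between the arrays about as often as other genes. Over the 4 arrays, 9 of the 31 had a range of at least 1.5-fold, where 23.1% of measured genes did. A difference counts here when it reached 1.5-fold (0.585 on the log2 scale) between the arrays compared. Between CKO 4OHT and CKO EtOH, 2 of the 31 were higher and 3 were lower, where 5.67% and 5.47% of the 7461 measured genes were. Between CKO 4OHT and control 4OHT, 1 was higher and none was lower, against 6.65% and 6.04% of measured genes. With each array centred on its median this turned to 0 higher and 1 lower. Between control 4OHT and control EtOH none was higher and 1 was lower, against 3.95% and 3.91%. Between CKO EtOH and control EtOH none was higher and 1 was lower, against 0.590% and 0.751%. At these sizes the counts stayed near the shares of all genes, and no gene of the list was 2-fold different in any of these comparisons, where 3.65% of measured genes were 2-fold different between CKO 4OHT and CKO EtOH. The medians of the 31 differences were 0.07, 0.07, 0.01 and -0.02, beside 0.01, 0.01, -0.04 and -0.03 for all measured genes. None of the 31 lay 1.5-fold above or below all other arrays in CKO 4OHT, where 2.48% and 3.19% of measured genes did.

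**Figure D1:**
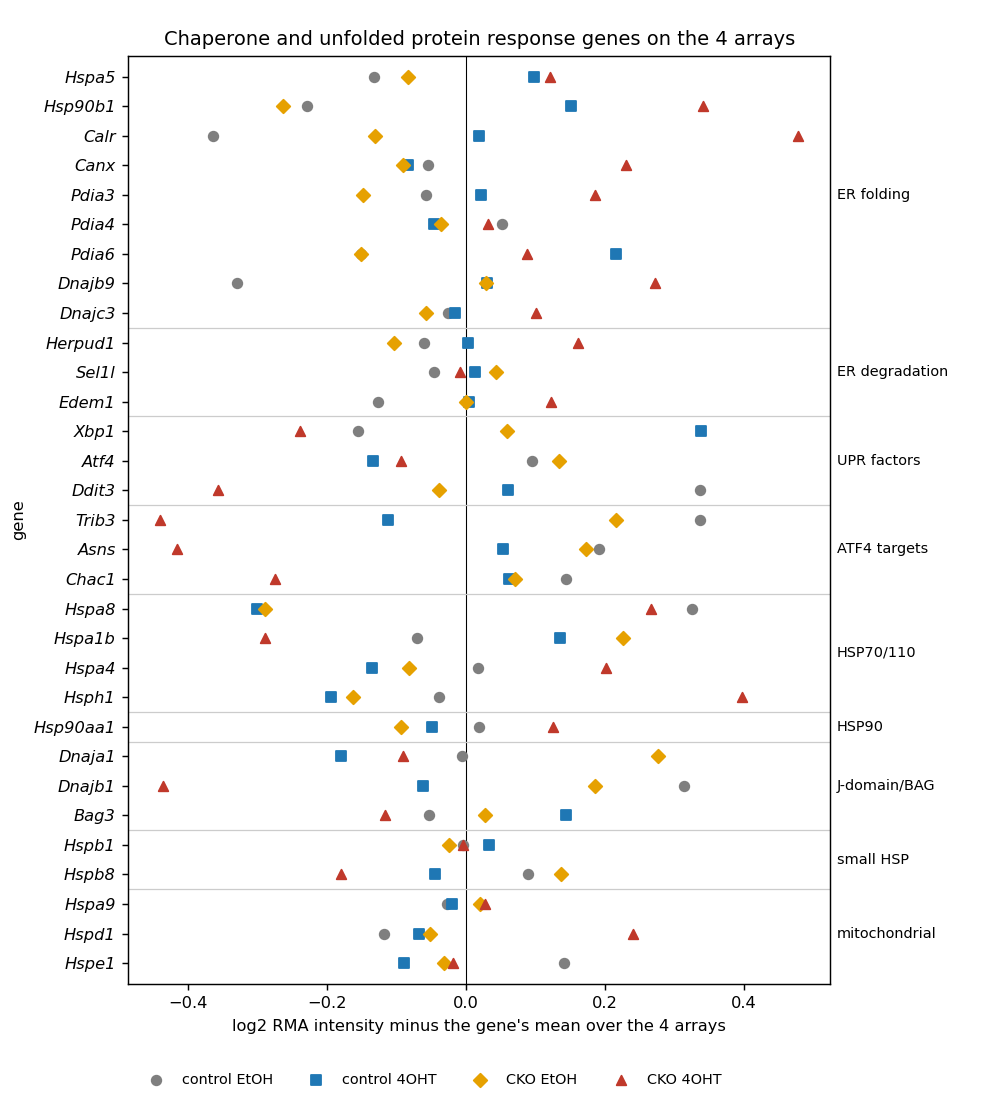
Log2 RMA intensity of each of the 31 genes on the 4 arrays, as the difference from that gene's mean over the 4 (x axis, log2 units), with genes grouped by role (y axis); each point is 1 array. CKO 4OHT was the highest array for 7 of the 9 ER folding genes and the lowest for Ddit3, Trib3, Asns and Chac1.

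Within this range the roles leaned to different sides. CKO 4OHT was the highest of the 4 arrays for 14 of the 31 genes and the lowest for 9, where it was highest for 31.6% and lowest for 31.1% of all measured genes. The 14 were 7 ER folding genes with Herpud1, Edem1, Hspa4, Hsph1, Hsp90aa1, Hspa9 and Hspd1. The 9 were Xbp1, Ddit3, Trib3, Asns, Chac1, Hspa1b, Dnajb1, Bag3 and Hspb8.

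Genes of ER folding read slightly higher in CKO 4OHT. All 9 were above CKO EtOH, by 0.07 to 0.61 with a median of 0.24 on the log2 scale, where 51.3% of measured genes were above. Against control 4OHT, 8 of the 9 were above, with a median of 0.16 and a range of -0.13 to 0.46, where 52.0% of measured genes were, and 7 of the 9 were above once each array was centred on its median. Calr and Hsp90b1 were the 2 genes past 1.5-fold, and both only against CKO EtOH.

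Calr encodes calreticulin, a lectin chaperone that binds calcium in the ER lumen. It had intensities of 393 with EtOH and 512 with 4OHT in control cells, and of 462 with EtOH and 704 with 4OHT in CKO cells. CKO 4OHT was the highest and control EtOH the lowest, with a difference of 0.61 from CKO EtOH and of 0.46 from control 4OHT on the log2 scale. The further probe sets of Calr differed by 0.45 (1456170_x_at) and 0.45 (1433806_x_at) from CKO EtOH, and by 0.12 and 0.19 from control 4OHT. Hsp90b1 encodes GRP94, the HSP90 of the ER. It was at 185 with EtOH and 240 with 4OHT in control cells, and at 180 with EtOH and 274 with 4OHT in CKO cells. Both arrays with 4OHT were above both with ethanol, and the difference from CKO EtOH was 0.60. The further Hsp90b1 probe set (1415889_a_at) differed by 0.18 from CKO EtOH and by -0.06 from control 4OHT, so the size for this gene depends on the probe set.

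Canx encodes calnexin, the membrane-bound partner of calreticulin. Its main probe set was at 372 with EtOH and 365 with 4OHT in control cells, and at 363 with EtOH and 453 with 4OHT in CKO cells, a difference of 0.32 from CKO EtOH. CKO 4OHT stood above arrays that were nearly level with each other. The other Canx probe sets differed more, by 0.98 (1422845_at, 124 against 63.2) and 0.75 (1428935_at, 23.8 against 14.1) from CKO EtOH and by 0.53 and 0.99 from control 4OHT.

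Hspa5 encodes BiP, the HSP70 of the ER and the usual marker of an unfolded protein response. It was at 1008 with EtOH and 1182 with 4OHT in control cells, and at 1042 with EtOH and 1202 with 4OHT in CKO cells. Both arrays with 4OHT were above both with ethanol, by 0.23 in control cells and 0.20 in CKO cells, so the array pair of each genotype differed by less than 1.5-fold. A further Hspa5 probe set (1427464_s_at) differed by 0.11 and 0.17. Pdia6, a disulfide isomerase, was at 279 with EtOH and 359 with 4OHT in control cells, and at 279 with EtOH and 329 with 4OHT in CKO cells. It was the 1 ER folding gene that was lower in CKO 4OHT than in control 4OHT. Pdia3, the isomerase that works with calnexin and calreticulin, was at 724 with EtOH and 764 with 4OHT in control cells, and at 679 with EtOH and 856 with 4OHT in CKO cells. Pdia4, a further isomerase, stayed between 32.7 and 35.0 on all 4 arrays, the narrowest range among the ER folding genes.

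Dnajb9 and Dnajc3 encode J-domain partners of BiP. Dnajb9 was at 38.8 with EtOH and 49.7 with 4OHT in control cells, and at 49.7 with EtOH and 58.8 with 4OHT in CKO cells. Control EtOH was low and CKO 4OHT high, and the arrays with only 1 of CreER and 4OHT were level. Dnajc3, which also holds back PERK and related kinases, was at 89.5 with EtOH and 90.1 with 4OHT in control cells, and at 87.5 with EtOH and 97.7 with 4OHT in CKO cells, with CKO 4OHT the highest by 0.12 over the next array.

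Genes of ER-associated degradation, which returns misfolded proteins to the cytosol for destruction, were close to level by their main probe sets. Herpud1, a membrane component of that pathway, was at 221 with EtOH and 231 with 4OHT in control cells, and at 215 with EtOH and 258 with 4OHT in CKO cells. Edem1, a lectin that picks out misfolded glycoproteins, was at 162 with EtOH and 178 with 4OHT in control cells, and at 177 with EtOH and 193 with 4OHT in CKO cells. Both were highest in CKO 4OHT by these probe sets, by 0.16 and 0.12 over the next array. A further Herpud1 probe set (1435626_a_at) was highest in control 4OHT, at 144 beside 129 in CKO 4OHT. Sel1l, the adaptor of the HRD1 ubiquitin ligase, stayed between 48.2 and 51.3 by its main probe set. Its dimmer further probe sets differed by -0.42 (1430692_a_at), -0.28 (1425188_s_at) and -0.38 (1453559_a_at) from control 4OHT, and by -0.22, -0.15 and 0.20 from CKO EtOH. The last of them was at 13.5 in control EtOH and 25.1 in control 4OHT. A further Edem1 probe set (1451218_at) had the opposite sign, at -0.25 from CKO EtOH against 0.12 for the main one.

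Transcription factors of the response did not share the direction of the ER folding genes. Xbp1 was at 375 with EtOH and 527 with 4OHT in control cells, and at 435 with EtOH and 354 with 4OHT in CKO cells. It was highest in control 4OHT and lowest in CKO 4OHT, so 4OHT went with a higher level in control cells (0.49) and a lower one in CKO cells (-0.30). The difference between CKO 4OHT and control 4OHT was -0.58, a ratio of 1.49, just short of the threshold. The further Xbp1 probe sets above the filter differed by -0.38 (1420886_a_at), -0.38 (1420011_s_at) and -0.08 (1420012_at) there. These probe sets do not tell spliced from unspliced Xbp1 mRNA, so IRE1 activity was not measured.

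Atf4 was at 1037 with EtOH and 886 with 4OHT in control cells, and at 1066 with EtOH and 910 with 4OHT in CKO cells. Both arrays with 4OHT were below both with ethanol, by 0.23 on the log2 scale in each genotype. A further Atf4 probe set (1438992_x_at) did not show this order, at 109 with EtOH and 96.2 with 4OHT in control cells, and at 88.4 with EtOH and 85.7 with 4OHT in CKO cells, with differences of -0.18 and -0.04. ATF4 is controlled largely through translation, which an array of mRNA does not read. Ddit3, which encodes CHOP, a factor that promotes cell death under lasting stress, was at 82.8 with EtOH and 68.3 with 4OHT in control cells, and at 63.8 with EtOH and 51.2 with 4OHT in CKO cells. It was highest in control EtOH and lowest in CKO 4OHT, with a difference of -0.42 from control 4OHT and -0.32 from CKO EtOH.

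The targets of the ATF4 pathway were all lowest in CKO 4OHT. Trib3, a pseudokinase that feeds back on ATF4 and CHOP, was at 160 with EtOH and 117 with 4OHT in control cells, and at 147 with EtOH and 93.6 with 4OHT in CKO cells. It was lower with 4OHT in both genotypes, by -0.45 in control cells and -0.66 in CKO cells, and a further Trib3 probe set (1456225_x_at) gave -0.53 and -0.74. Asns, asparagine synthetase, was at 1321 with EtOH and 1201 with 4OHT in control cells, and at 1305 with EtOH and 867 with 4OHT in CKO cells. The other arrays were near each other and CKO 4OHT lay 0.47 below the nearest, the widest such gap below the other arrays among the 31 genes. The further Asns probe set (1433966_x_at) was 0.40 lower than in CKO EtOH, at 556 against 731. Chac1, a glutathione-degrading enzyme, was at 141 with EtOH and 134 with 4OHT in control cells, and at 134 with EtOH and 106 with 4OHT in CKO cells, with CKO 4OHT 0.34 below the nearest array. Of Atf4, Ddit3, Trib3, Asns and Chac1, 4 of 5 were lowest in CKO 4OHT and 4 of 5 were highest in control EtOH, where 31.1% and 29.4% of all measured genes were.

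**Figure D2:**
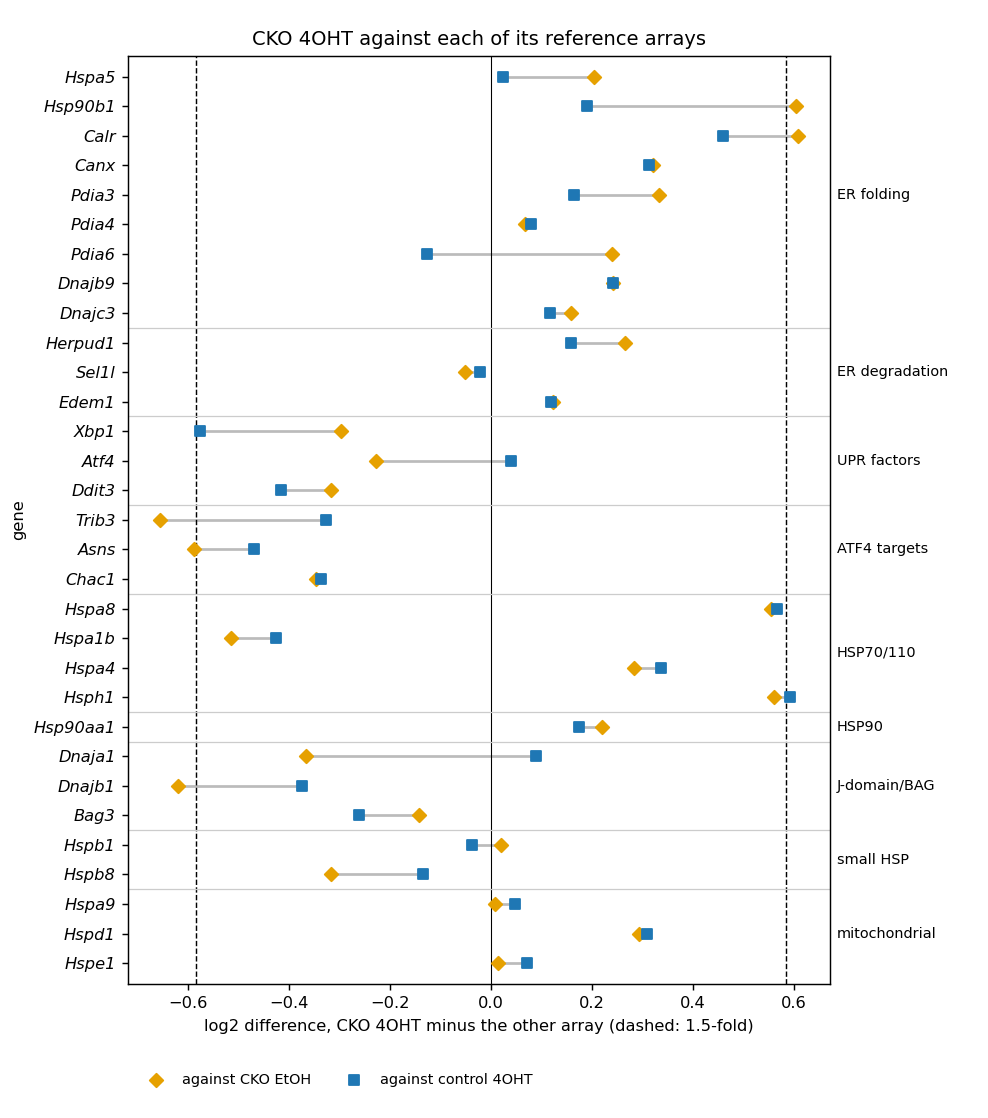
Log2 difference of CKO 4OHT from CKO EtOH (diamonds) and from control 4OHT (squares) for each of the 31 genes (y axis, grouped by role), with dashed lines at 1.5-fold. Calr and Hsp90b1 lay past the upper line and Trib3, Asns and Dnajb1 past the lower line against CKO EtOH, and Hsph1 past the upper line against control 4OHT; both series of points use the same CKO 4OHT array.

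Cytosolic HSP70 and HSP110 genes split. Hsph1 encodes HSP110, an exchange factor and partner of HSP70. It was at 215 with EtOH and 193 with 4OHT in control cells, and at 197 with EtOH and 291 with 4OHT in CKO cells. CKO 4OHT was the highest array by 0.44 over the next, and 0.59 above control 4OHT. This was the one call against control 4OHT, and it fell short of 1.5-fold with each array centred on its median (0.56) or with 16 added before log2 (0.55). The further Hsph1 probe set (1423566_a_at) showed the same order of size, at 36.9 to 40.0 on 3 arrays and 68.6 in CKO 4OHT. Hspa4, another member of the HSP110 class, was at 463 with EtOH and 417 with 4OHT in control cells, and at 432 with EtOH and 526 with 4OHT in CKO cells, a difference of 0.28 from CKO EtOH.

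Hspa8, the constitutive HSP70 of the cytosol, was at 2142 with EtOH and 1388 with 4OHT in control cells, and at 1399 with EtOH and 2055 with 4OHT in CKO cells. Control EtOH and CKO 4OHT were high and the other arrays low, so 4OHT went with a lower level in control cells (-0.63) and a higher one in CKO cells (0.55). The next brightest Hspa8 probe set (1420623_x_at) did not show the high value in control EtOH relative to CKO EtOH, at 1497 with EtOH and 1176 with 4OHT in control cells, and at 1537 with EtOH and 1651 with 4OHT in CKO cells. A dimmer one (1420622_a_at) was at 209 with EtOH and 166 with 4OHT in control cells, and at 208 with EtOH and 317 with 4OHT in CKO cells. The higher level in CKO 4OHT than in control 4OHT was common to these probe sets (0.57, 0.49 and 0.93), whereas the difference of -0.61 between the ethanol arrays was not (0.04 and -0.01).

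Hspa1b, the stress-inducible HSP70, lay on the other side. It was at 784 with EtOH and 905 with 4OHT in control cells, and at 963 with EtOH and 674 with 4OHT in CKO cells. CKO 4OHT was the lowest array, 0.52 below CKO EtOH. The further Hspa1b probe sets were 0.54 (1452318_a_at) and 0.21 (1427126_at) below CKO EtOH. By 1427126_at CKO 4OHT was not the lowest array, at 356 beside 323 in control EtOH. Hspa1b and Hspa1a are near-identical copies, so their probe sets may read both.

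Hsp90aa1, the inducible HSP90 of the cytosol, was at 911 with EtOH and 869 with 4OHT in control cells, and at 842 with EtOH and 981 with 4OHT in CKO cells. CKO 4OHT was highest by 0.11 over the next array. The further Hsp90aa1 probe sets differed by 0.25 (1426645_at) and 0.64 (1437497_a_at) from CKO EtOH and by 0.63 and 0.79 from control 4OHT, so the main probe set gave the smallest values.

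The cytosolic co-chaperones of the list, Dnajb1, Bag3 and Dnaja1, were lower in CKO 4OHT than in CKO EtOH by their main probe sets. Of the 22 other cytosolic chaperones and co-chaperones described below, 14 were above CKO EtOH and 8 below, where 51.3% of measured genes were above. Dnajb1, the HSP40 that activates HSP70 and is a classic heat shock gene, was at 468 with EtOH and 360 with 4OHT in control cells, and at 428 with EtOH and 278 with 4OHT in CKO cells. It was lower with 4OHT in both genotypes, by -0.38 and -0.62. The further Dnajb1 probe set (1416756_at) was at 326 with EtOH and 356 with 4OHT in control cells, and at 389 with EtOH and 281 with 4OHT in CKO cells, so the lower value in control 4OHT was not shared while that in CKO 4OHT was. Bag3, which links HSP70 to autophagy, was at 147 with EtOH and 168 with 4OHT in control cells, and at 155 with EtOH and 141 with 4OHT in CKO cells. Dnaja1, a farnesylated HSP40, was at 444 with EtOH and 394 with 4OHT in control cells, and at 540 with EtOH and 419 with 4OHT in CKO cells, where CKO EtOH was the high array. A further Dnaja1 probe set (1460179_at) stayed between 107 and 115, so that high value was not shared.

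Hspb1, the small heat shock protein HSP27, had the highest signal of all 22626 probe sets on each of the 4 arrays, at 6982 with EtOH and 7167 with 4OHT in control cells, and at 6888 with EtOH and 6982 with 4OHT in CKO cells. RMA brings the probes of all arrays to a common distribution, which limits how far a probe set that ranks first on every array can differ between them. The range of 0.06 on the log2 scale for Hspb1 therefore does not show that its RNA was level. A further Hspb1 probe set (1425964_x_at), which ranked between 6 and 8, was at 5345 with EtOH and 5879 with 4OHT in control cells, and at 5366 with EtOH and 5208 with 4OHT in CKO cells. Hspb8, which works with BAG3, was at 147 with EtOH and 134 with 4OHT in control cells, and at 152 with EtOH and 122 with 4OHT in CKO cells. Its further probe sets had the opposite sign against CKO EtOH (0.30 and 0.06 beside -0.32).

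No mitochondrial chaperone passed 1.5-fold in any comparison. Hspa9, the HSP70 of the matrix, stayed between 580 and 602 on the 4 arrays. Hspe1, the chaperonin partner HSP10, was at 813 in control EtOH and between 693 and 728 on the other arrays. Hspd1, the chaperonin HSP60, was at 705 with EtOH and 730 with 4OHT in control cells, and at 738 with EtOH and 904 with 4OHT in CKO cells. CKO 4OHT was high for Hspd1, 0.29 above the next array. Hspd1 and Hspe1 share the promoter stretch printed above. A further Hspe1 probe set (1422579_at) was at 158 with EtOH and 129 with 4OHT in control cells, and at 151 with EtOH and 176 with 4OHT in CKO cells, with CKO 4OHT the highest by 0.15 over the next array, which the main Hspe1 probe set did not show.

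The effect of 4OHT was compared between the genotypes, a comparison in which no array is shared. Of the 31 genes, 12 were above ethanol in both genotypes, 8 were below in both and 11 had opposite signs, where 22.8%, 28.2% and 48.7% of measured genes were. Among the ER folding genes 7 of 9 were above in both, where 22.8% of measured genes were. Their median was 0.23 in control cells and 0.24 in CKO cells, so these genes leaned higher with 4OHT in cells without CreER as well. Taken gene by gene, the effect in CKO cells minus that in control cells had a median of 0.17. It was above 0 for 6 of the 9, where 54.7% of measured genes were. Across the 31 genes the Pearson correlation of the 2 effects of 4OHT was 0.30, and it was 0.03 across all 7461 measured genes. These are correlations across genes, which share the same arrays and are not independent replicates.

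The difference of the 2 effects of 4OHT passed 1.5-fold upward for 2 genes, Hspa8 (1.18) and Hsph1 (0.72), and downward for 2, Xbp1 (-0.79) and Hspa1b (-0.72). Of all measured genes 11.1% and 8.51% passed. This difference holds the error of 4 arrays, and the values for Hspa8 rest in part on the probe set that read control EtOH high. Between the ethanol arrays, which differ in CreER and in the mice, the 31 genes spanned -0.61 (Hspa8) to 0.36 (Dnajb9). Between CKO 4OHT and CKO EtOH they spanned -0.66 (Trib3) to 0.61 (Calr). Without Hspa8, the lower end between the ethanol arrays was Ddit3 at -0.38.

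**Figure D3:**
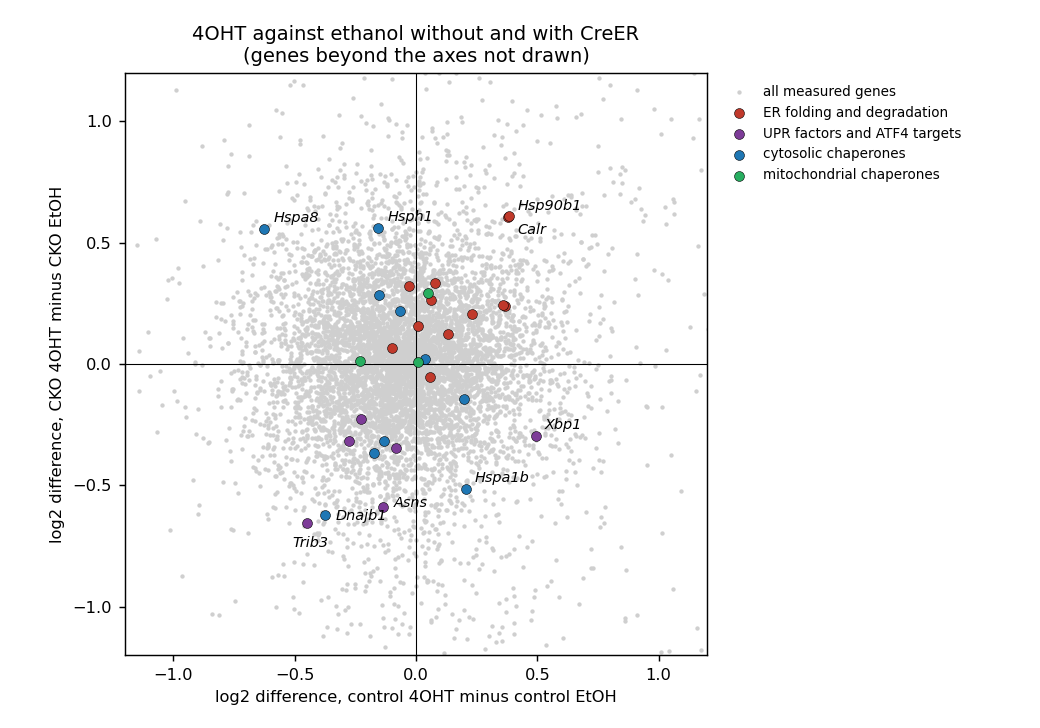
Log2 difference of 4OHT from ethanol in control cells (x axis) and in CKO cells (y axis); coloured points are the 31 genes by role and grey points all measured genes within the axes. Hsp90b1 and Calr were the furthest up among genes above 0 in both, Trib3 the furthest down among those below 0 in both, and Hspa8, Hsph1, Xbp1 and Hspa1b had opposite signs.

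Probe sets of the same gene gave the nearest thing to a repeat measurement. For 23 of the 31 genes there were 35 further probe sets above the level filter. Of these, 27 had the sign of the main probe set between CKO 4OHT and CKO EtOH, 29 between CKO 4OHT and control 4OHT and 25 between control 4OHT and control EtOH. Between the ethanol arrays it was 17 of 35. All further probe sets kept the sign against CKO EtOH for Hspa5, Hsp90b1, Calr, Canx, Herpud1, Xbp1, Atf4, Trib3, Asns, Hspa8, Hspa1b, Hspa4, Hsph1, Hsp90aa1, Dnajb1 and Hspe1. Sign differed within Dnajc3, Sel1l, Edem1, Dnaja1, Hspb1, Hspb8 and Hspa9. Probe sets can read different transcript ends, and probe sets of 1 gene share the RNA of the same culture, so they say nothing about spread between cultures.

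**Figure D4:**
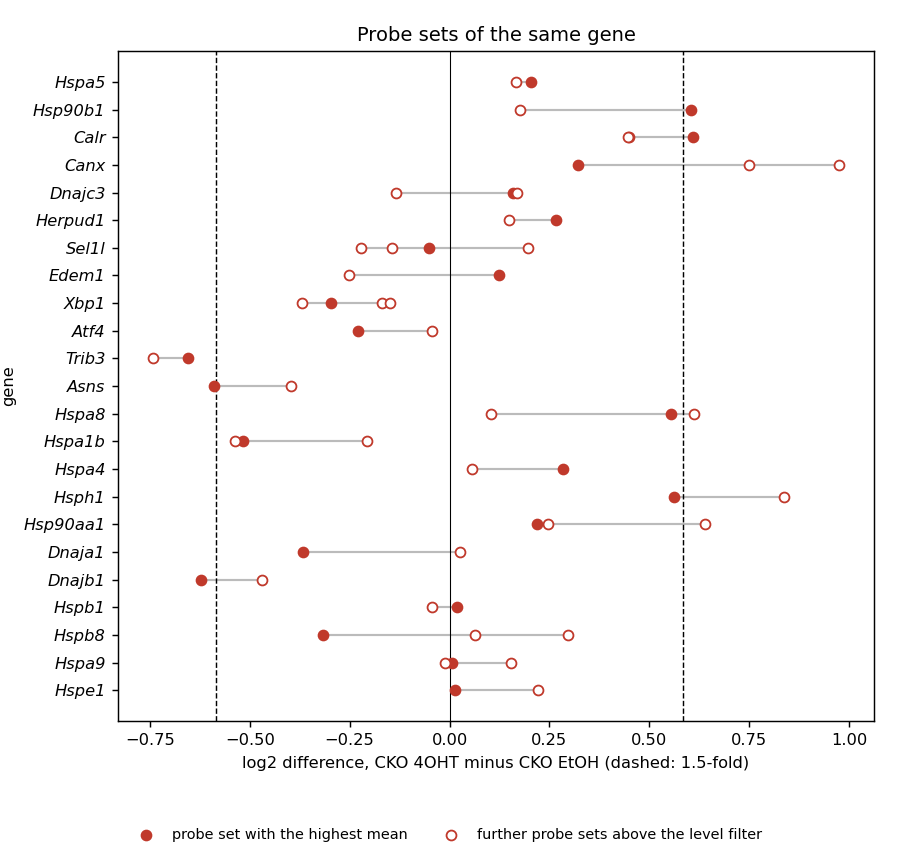
Log2 difference of CKO 4OHT from CKO EtOH (x axis) for each probe set above the level filter, for the 23 genes with more than 1 (y axis); filled points are the probe sets with the highest mean, open points the others, and dashed lines mark 1.5-fold. Canx, Hsph1, Hspa8 and Hsp90aa1 have an open point past the upper line that their filled point does not pass.

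Further genes of these pathways, from lists that exclude the 33, were read in the same way. The shares of all measured genes past 1.5-fold, for every list that follows, were 5.67% higher and 5.47% lower against CKO EtOH and 6.65% and 6.04% against control 4OHT. Of 7 measured unfolded protein response sensors and processing genes, 1 was lower in each comparison of CKO 4OHT and none was higher. That gene was Atf6, the ER stress sensor itself, at 26.6 with EtOH and 33.7 with 4OHT in control cells, and at 36.8 with EtOH and 17.1 with 4OHT in CKO cells. CKO 4OHT was the lowest array, 0.64 below the nearest and 1.11 below CKO EtOH, at levels close to the filter. Of 16 other ER folding and translocation genes, Serp1, a protein that stabilises membrane proteins under ER stress, was higher against CKO EtOH (0.62, at 618 against 401). No gene of this list was lower there, and the median was 0.17. Against control 4OHT none of the 16 passed 1.5-fold, 8 were above 0 and 8 below, and the median was -0.003. A further Serp1 probe set (1415827_a_at) gave 0.32. None of 12 other ER-associated degradation genes passed 1.5-fold, with medians of 0.14 and 0.03 against CKO EtOH and control 4OHT. The brightest of these were Vcp, the segregase that pulls proteins out of the membrane (0.06 and -0.00), and Selenos (0.35 and 0.35).

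Amino acid response genes, many of them ATF4 targets, leaned lower in CKO 4OHT. Of 22 measured, 4 were lower against CKO EtOH and 3 against control 4OHT and none was higher, where 5.47% and 6.04% of measured genes were lower. The medians were -0.16 and -0.20, with 15 and 16 of the 22 below 0. Between the ethanol arrays 15 were below 0 as well, with a median of -0.08 beside -0.03 for all measured genes. Between the control arrays 13 were, with a median of -0.08 beside -0.04. The counts include Shmt2 (-0.61 against CKO EtOH) and Psat1 (-0.68 against control 4OHT). Vldlr, the very low density lipoprotein receptor, was at 134 with EtOH and 88.8 with 4OHT in control cells, and at 101 with EtOH and 41.5 with 4OHT in CKO cells. It lay 1.10 below the nearest array on the log2 scale, and a further Vldlr probe set (1417900_a_at) was at 35.3 to 49.4 on 3 arrays and 23.0 in CKO 4OHT. Ddit4, an inhibitor of mTORC1 signalling, was at 522 with EtOH and 452 with 4OHT in control cells, and at 575 with EtOH and 305 with 4OHT in CKO cells, lower by -0.92 and -0.57. Nupr1, a stress-induced chromatin protein, was lower against control 4OHT alone (-0.96 beside -0.12), and was high in control 4OHT at 477 beside 246 to 292 elsewhere. Cebpg, a partner of ATF4, was lower by -0.76 and -0.56, but a further Cebpg probe set (1451639_at) gave 0.21 and -0.04.

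Other cytosolic chaperones gave counts near the shares of all genes. Of 22 measured, 1 was higher and 2 were lower against CKO EtOH, where 5.67% and 5.47% of measured genes were, and 1 was higher and 3 were lower against control 4OHT, where 6.65% and 6.04% were, with medians of 0.07 and 0.19. Cryab, the small heat shock protein alpha-B-crystallin, was at 139 with EtOH and 222 with 4OHT in control cells, and at 134 with EtOH and 380 with 4OHT in CKO cells. Both arrays with 4OHT were above both with ethanol, and CKO 4OHT was 1.5 above CKO EtOH and 0.78 above control 4OHT. A further Cryab probe set (1416455_a_at) gave 1.77 and 1.11. Hspa4l, an HSP110 relative, was at 139 with EtOH and 195 with 4OHT in control cells, and at 172 with EtOH and 88.3 with 4OHT in CKO cells, lower by -0.96 and -1.14, and its further probe set gave -0.93 and -0.76. Hspa1a, the copy of Hspa1b, was lower by -0.47 and -0.93, and Dnajb4, an HSP40, by -0.65 and -0.68. Of 8 subunits of the cytosolic chaperonin CCT none passed 1.5-fold, with medians of 0.12 and 0.20, the brightest being Cct5 (-0.08 and -0.09) and Cct6a (0.13 and 0.27). Of 8 other mitochondrial chaperones and proteases none passed, with medians of 0.06 and 0.14. The brightest by mean log2 value were Grpel2 (0.15 and 0.13) and Trap1 (0.07 and 0.19).

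**Figure D5:**
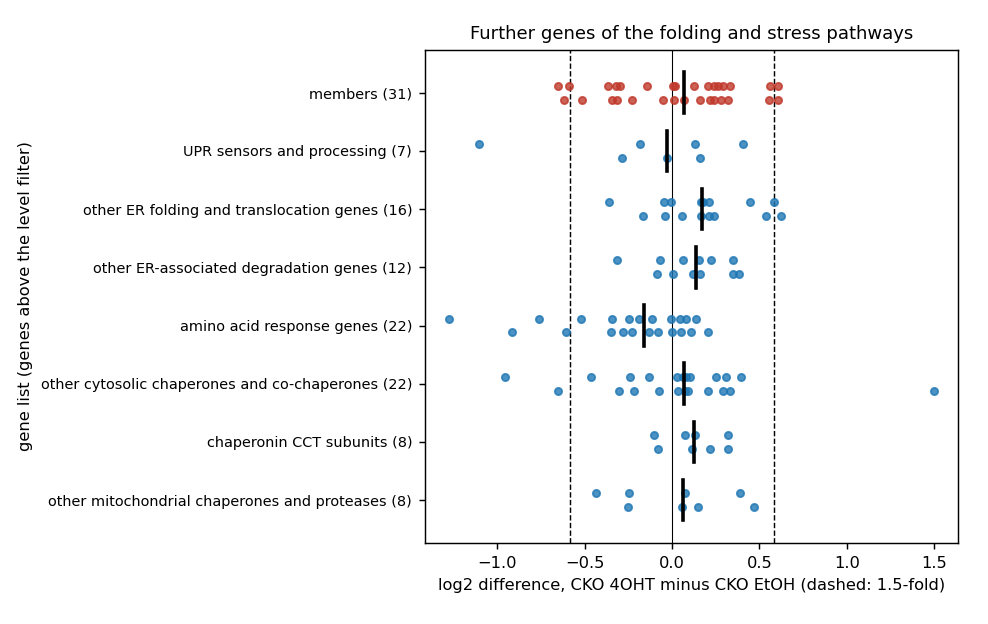
Log2 difference of CKO 4OHT from CKO EtOH (x axis) for the 31 genes and for the further gene lists (y axis, with the number above the level filter); each point is 1 gene, black bars are medians and dashed lines mark 1.5-fold. Atf6, Vldlr, Ddit4 and Hspa4l lay furthest to the left and Cryab furthest to the right.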

How the data were processed

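RNA of 4 keratinocyte cultures was read on the Mouse Expression Array 430A, 1 array per group, as the labels give the groups. The deposited table holds 1 linear intensity per probe set (22626 probe sets), made with RMA according to the submitters' processing notes, with no version given there. This method brings the arrays to a common distribution, so a shift of most transcripts would be lost, and it compresses dim differences. The table has no detection calls, and the number of arrays limits the precision.

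Values were taken to log2 without a pseudocount (Python 3.11.15, numpy 2.4.6, pandas 2.3.3). Probe sets naming 1 gene (20380, by the platform annotation) were kept, 691 naming several and 1555 not listed were left out, and a gene took the probe set with the highest mean log2 value. No test was run. Differences of at least 1.5-fold were counted, with 2-fold as an alternative. All 31 genes are named, with Prdm1 as the targeted gene; of the other lists, genes past 1.5-fold against CKO EtOH or control 4OHT are named (at most the 4 highest and 4 lowest), or the 2 brightest. Krt1, Krt10, Lor, Itgb4, Itga6, Shmt2, Psat1 and the genes of further probe sets were named after their values were seen. The members and lists were chosen with earlier results of these data known. The counting code was run on simulated data with a set noise and set shifts larger than 1.5-fold. That checks the code only and says nothing about the error of these arrays. RefSeq promoter windows were searched for 5 textbook motifs, set by hand.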

Additional observations from a re-analysis of the deposited data

Results flagged for a closer look

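Of the 31 genes, 4 had effects of 4OHT with opposite signs in the 2 genotypes and a difference between these effects of at least 1.5-fold, where 15.9% of measured genes did. The difference was not tested, since each group had 1 array. The difference on the log2 scale was 1.18 for Hspa8 (0.55 in CKO cells and -0.63 in control cells), 0.72 for Hsph1 (0.56 and -0.16), -0.72 for Hspa1b (-0.52 and 0.21) and -0.79 for Xbp1 (-0.30 and 0.49). The further probe sets above the level filter gave 0.45 and 0.95 for Hspa8, 0.95 for Hsph1, -0.76 and -0.57 for Hspa1b, and -0.74, -0.35 and 0.17 for Xbp1.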

How the results depend on the processing

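No paired analysis was possible because each group had 1 array and the labels give no replicate numbers; for the same reason no array could be left out within a group. The medians of the 31 differences moved by less than 0.1 on the log2 scale under all alternatives run. They were themselves smaller than 0.1, so this does not show that they were stable. With the mean over all probe sets of a gene, the median against control 4OHT went from 0.07 to 0.0007. Between control 4OHT and control EtOH the median ran from -0.04 to 0.06 over the alternatives. No count changed by over 1.5 times without the level filter or with the stricter one at the 75th percentile. Against CKO EtOH, the median of the ER folding genes stayed between 0.22 and 0.33 and that of the ATF4 targets between -0.61 and -0.47. The counts past 1.5-fold are small, so single genes near the threshold move them. With 2-fold in place of 1.5-fold, 0 genes were higher and 0 lower against CKO EtOH, 0 were higher against control 4OHT, 0 were lower in control 4OHT against control EtOH and 0 in CKO EtOH against control EtOH, and the difference of the 4OHT effects held for 1 gene upward and 0 downward. With each array centred on its median, 1 was higher against CKO EtOH, 0 were higher and 1 was lower against control 4OHT, and 0 were lower in control 4OHT and in CKO EtOH against control EtOH. With 16 added before log2, 1 was higher and 1 lower against CKO EtOH and 0 higher against control 4OHT. With the mean over all probe sets of a gene, which left 29 genes above the filter, 1 was lower against CKO EtOH, 3 were higher and 1 lower against control 4OHT, 0 were lower in control 4OHT and in CKO EtOH against control EtOH, 1 had a lower difference of the 4OHT effects, and 2 lay above and 1 below all other arrays in CKO 4OHT. Without probe sets ending in _s_at, _x_at or _a_at, which left 24 genes, 1 was higher against CKO EtOH, 0 were lower in control 4OHT and in CKO EtOH against control EtOH, and 0 passed in the difference of the 4OHT effects in either direction; there Xbp1 turned from -0.79 to 0.17, read by a probe set at 15.99 to 21.1 intensity units. The causes of these moves were not tested beyond what each alternative itself changes.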
